A study of Arabidopsis thaliana with 48 samples.

Results

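Leaves of wild-type Arabidopsis thaliana (accession Col-0, Col in the labels) that had stood in high light for 8 min, called local, were compared with leaves that were not lit, called systemic. The 6 libraries, 3 of local and 3 of systemic leaves, were taken by the genotype, leaf and time in their titles out of 48 in all, and each local library was paired with the systemic library of the same replicate number. Of 32833 listed genes, the 19556 with a mean normalised read count of at least 10 over the 48 libraries were tested (19487 genes reach this mean over the 6 libraries). RNA was total RNA of leaves of 4-week-old plants grown on soil under 10 h of light and 14 h of dark per day, and the design text gives 20 plants for each repeat. The same leaf comparison in Col after 0, 2 and 30 min of high light, and in myb30 after 8 min, served for tests of whether the leaf difference itself differed, with 3 local and 3 systemic libraries each. The 0 min leaves are the unstressed baseline of the design, and myb30 is a knockout of the R2R3-MYB transcription factor gene MYB30 whose allele, like the strength of the light, is not given in the sources used here.

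High light drives photosystems faster than the carbon reactions can use the energy, and the leaf then sends the surplus into heat and into reactive oxygen species such as hydrogen peroxide. Lit leaves can also warm, and both signals are known to act on heat shock transcription factors, which bind heat shock elements in promoters and switch on chaperone genes. A local light stress is also known to send a wave of reactive oxygen and calcium signals through the veins to leaves outside the light, so that unlit leaves of a stressed plant are not unstressed leaves.

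The 48 libraries held 70514715 to 89402096 reads in genes. The 3 pairs of Col at 8 min deviated together from their group means (correlation of deviations 0.526, 0.315 and 0.587 for replicates 1, 2 and 3), and every library correlated best with its own number. As a check that the tissue was leaf, the light-harvesting gene CAB1 averaged 1477449.9 ± 54836 normalised counts in local and 1534528 ± 18279 in systemic leaves. Of 8 listed root and flower markers, the root genes TIP2;3 and NRT2.1 averaged 0 and 0.720 in local leaves and 0.30 and 0 in systemic leaves. The flower genes AP3 and PI averaged 6.98 and 4.27 in local and 2.45 and 3.05 in systemic leaves. The 4 tested members together held 4032 to 4961 counts per local and 3944 to 4781 per systemic library. These values do not tell local from systemic leaves. Outside systemic 0 min, 8 genes separate every Col library from every myb30 library. Of these, 100% lay nearer the other genotype in replicate 3 of systemic 0 min leaves, both in Col and in myb30. In the other systemic 0 min libraries, which did not enter the choice of these genes, 0% did. In the libraries used for the choice at most 12.5% did, a share that the choice itself keeps low. Main results that use 0 min are therefore given with and without replicate 3 of that time. Elsewhere replicate 3 was kept. For Col at 30 min, the time characteristic of all 6 libraries says 0 min instead, and the titles were followed. Below, levels are normalised read counts, means are ± SD (n = 3), and differences are local minus systemic on the log2(value + 1) scale ± SE from limma, with p-values adjusted over all tested genes and a threshold of 0.05. What the p-values gauge is the spread among these pools of plants, and in whole leaves fewer cells of a type and less RNA per cell cannot be told apart.

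After 8 min, 1859 genes were higher in local than in systemic leaves (9.51% of those tested) and 1616 were lower (8.26%), 17.8% in all. Most differences were small, with a median size of 0.37 among the higher and 0.38 among the lower genes. The large ones ran mostly upward: 378 higher and 137 lower genes differed by at least 2-fold, 160 and 13 by at least 4-fold, and 49 and 0 by at least 32-fold. In 1582 of the higher genes every local library lay above every systemic library, and in 1413 of the lower genes every local library lay below. Over all tested genes, called or not, 15.2% lay above without overlap and 15% below. The direction of the large set of small differences depended on scaling: with quantile normalization 1341 genes were higher and 2455 lower (35.3% higher, against 53.5%), and with scaling to the same total 954 were higher and 4180 lower (18.6% higher), where the median of all genes moved by -0.11. Without the pairs 1089 genes were higher and 941 lower, and leaving out pair 1, 2 or 3 left 1817, 2041 and 1833 calls in all. The spread is estimated from all 48 libraries, those of 0 min included, and leaving the 0 min pairs out of the fit gave 2040 higher and 1768 lower genes, 3808 in all.

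**Figure D1:**
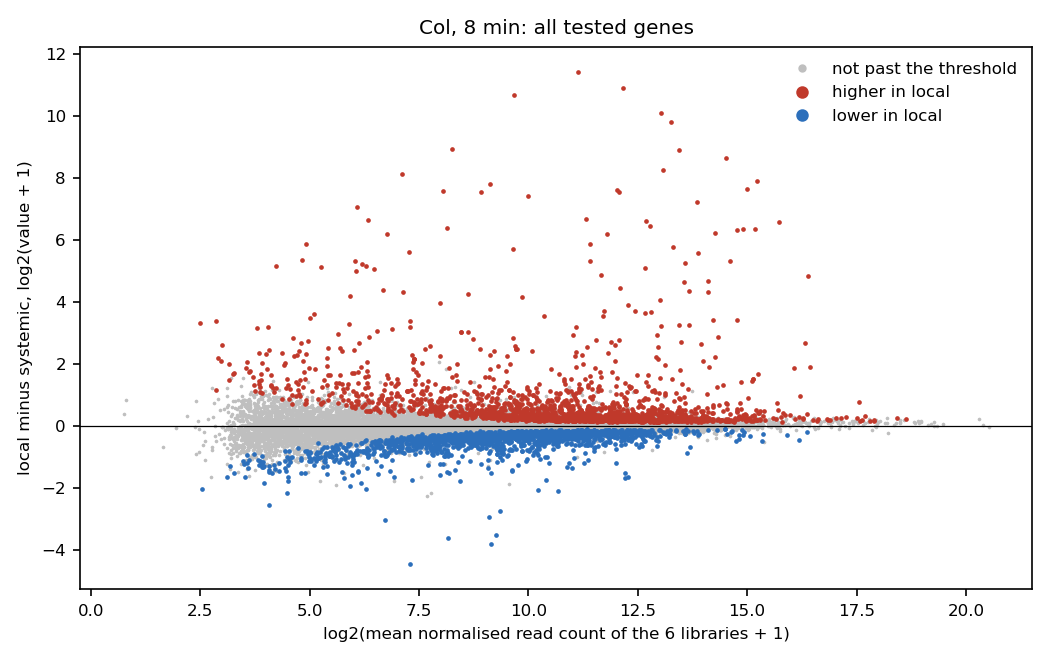
Difference between local and systemic leaves of Col at 8 min (y axis, log2 of value plus 1) against the mean normalised read count of the 6 libraries (x axis, log2 of mean plus 1) for 19556 genes, 1 point each. The 1859 genes higher in local leaves reach much further from 0 than the 1616 lower ones, and the points beyond 5 on the y axis are all higher in local leaves.

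The 10 highest genes without overlap between the leaves were 8 small heat shock proteins, which hold unfolding proteins in a refoldable state, a DnaJ-domain co-chaperone and a heat shock factor. AT1G71000, which encodes a DnaJ-domain co-chaperone, had 3268, 3821 and 6353 normalised counts in the 3 local libraries, against 0, 0.978 and 0.947 in the 3 systemic ones. These are 2 reads in all in the systemic libraries, so no fold is given. HSP23.6-MITO (AT4G25200), a mitochondrial small heat shock protein, stood at 8444, 8970.1 and 10219 in local leaves, against 7.21, 5.87 and 0.947 in systemic leaves (10.91 ± 0.77, adjusted p = 5.51e-10). ATHSP22.0 (AT4G10250), the small heat shock protein of the endoplasmic reticulum, was read only in the lit leaves of this comparison: it had 1488, 1523 and 1849.9 there and 0 reads in each systemic library, at least 573-fold higher against a floor of 3 reads per library. The heat shock factor gene AT-HSFA7B (AT3G63350) likewise had 293, 269 and 267 in local leaves and 0 reads in each systemic library, at least 97.8-fold higher. HSP21 (AT4G27670), the plastid small heat shock protein, had 599.6, 548 and 685 in local leaves and 1 read in all in systemic leaves. In all 5 genes the lowest local library stood far above the highest systemic one.

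The other 5 of the 10 highest genes were cytosolic small heat shock proteins, and they stood above 0 in every systemic library. The class I gene AT1G53540 had 15459.8, 15993 and 18348 in local leaves, against 41.4, 6.84 and 9.47 in systemic leaves (10.09 ± 0.78, adjusted p = 2.53e-09). For HSP17.6A (AT5G12030), of class II, the values were 18689, 19277 and 20497 in local leaves and 55.9, 14.7 and 10.4 in systemic leaves (9.81 ± 0.63). The systemic libraries spread far more than the local ones in both genes, with replicate 1 highest. AT1G07400 (8.89 ± 0.54) and HSP17.6II (AT5G12020; 8.24 ± 0.49) were also higher. AT1G59860 reached 42105, 48652 and 49981 in local leaves and 126, 142 and 89.0 in systemic leaves (8.63 ± 0.28, adjusted p = 8.29e-16).

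**Figure D2:**
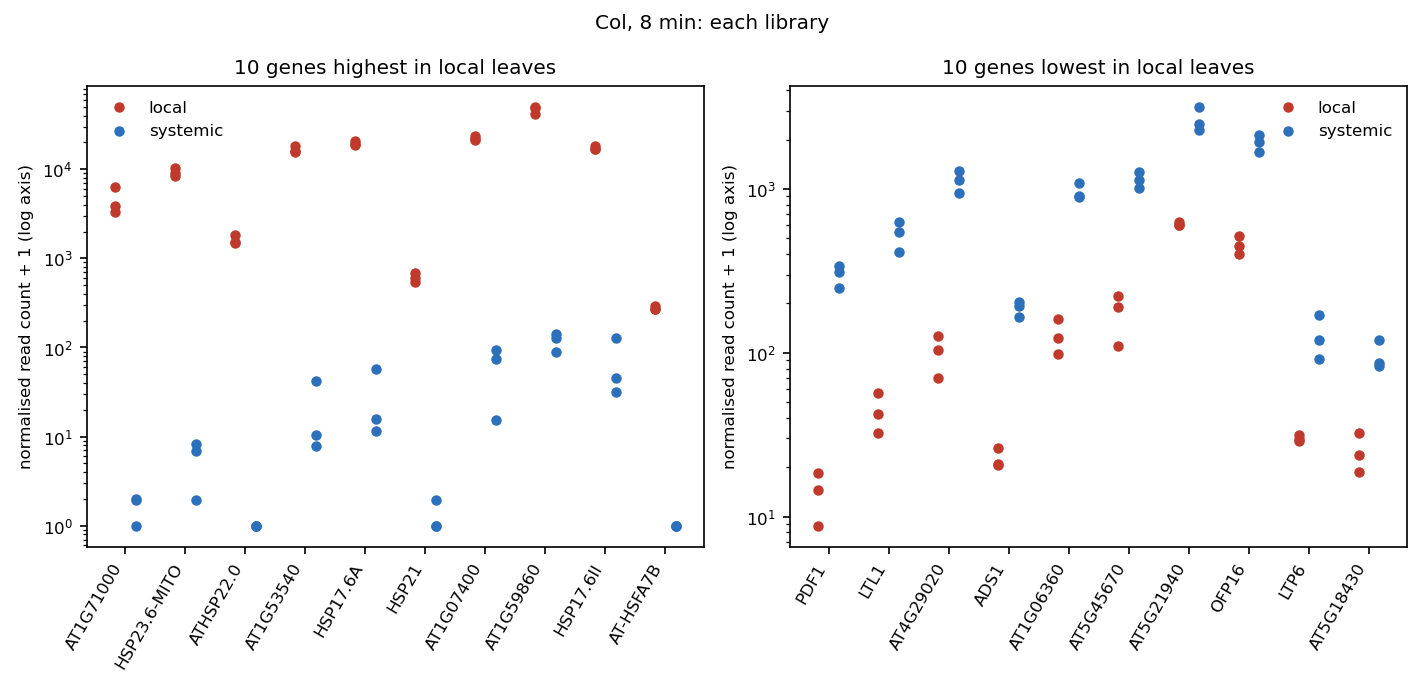
Normalised read count plus 1 (log axis) in each of the 3 local and 3 systemic libraries of Col at 8 min for the 10 highest and 10 lowest genes of the comparison, 1 point per library. The genes were picked for no overlap. The gaps are far wider on the left, where ATHSP22.0 and AT-HSFA7B lie at 0 reads in all 3 systemic libraries.

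Promoters of 3 of the 10 highest genes hold a heat shock element of 3 units (GAA, TTC and GAA with 2 bases between units), read on both strands from 250 bases before to 50 after the RefSeq gene start (TAIR10.1). They are shown because these letters are what heat shock factors bind, with the 250 bases before the start written 5′ to 3′ on the gene's strand and the element in capitals. AT1G71000, at chr1:26770178-26770427 on the minus strand, holds 2 overlapping matches, first bases 131 and 126 before the start, that join into 4 units; AT1G53540, at chr1:19980049-19980298 on the plus strand, has its match 53 bases before the start; and AT-HSFA7B, at chr3:23398986-23399235 on the plus strand, 157 bases before it.
AT1G71000: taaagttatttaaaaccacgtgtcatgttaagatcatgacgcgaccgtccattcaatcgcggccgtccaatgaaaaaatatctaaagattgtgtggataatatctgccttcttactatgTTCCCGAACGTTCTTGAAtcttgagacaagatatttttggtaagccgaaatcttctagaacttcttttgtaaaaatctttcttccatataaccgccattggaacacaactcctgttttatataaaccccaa
AT1G53540: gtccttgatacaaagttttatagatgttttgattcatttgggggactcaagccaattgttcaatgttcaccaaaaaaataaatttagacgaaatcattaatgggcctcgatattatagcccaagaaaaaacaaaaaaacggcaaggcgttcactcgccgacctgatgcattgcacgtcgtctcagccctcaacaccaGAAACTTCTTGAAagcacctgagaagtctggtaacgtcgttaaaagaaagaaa
AT-HSFA7B: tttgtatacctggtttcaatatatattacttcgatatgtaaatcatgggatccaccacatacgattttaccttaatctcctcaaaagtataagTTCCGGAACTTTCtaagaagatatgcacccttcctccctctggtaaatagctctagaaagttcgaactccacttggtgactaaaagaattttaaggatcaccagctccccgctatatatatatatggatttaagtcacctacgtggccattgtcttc
The 3-unit element, a motif added after the data were seen, lies in 0.561% of the 19426 promoters read, in 2.15% of those of genes higher in local leaves, in 8.86% of those at least 4-fold higher and in 0.186% of those lower. The 2-unit form GAANNTTC lies in 11.6%, 15.9%, 22.8% and 9.60% of the same sets. Of the other motifs searched, the G-box CACGTG lies in 8.85%, 12.5%, 16.5% and 7.87%, the rapid stress response element CGCGTT in 3.77%, 5.52%, 5.70% and 2.48%, and the dehydration-responsive core CCGAC in 16.3%, 17.1%, 16.5% and 15.5%. A match is a description of these letters only, and the 2-unit form is part of every 3-unit match.

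All 14 genes of the 2 small heat shock protein lists passed the test. All 9 genes of the cytosolic list were higher in local leaves (median difference 8.24, lowest 4.15 for HSP18.2). So were all 5 of the organelle list (median 8.93, or 7.76 with genes of at most 3 reads in a group set to their bound). The median of all tested genes was 0.00043. AT5G37670, a peroxisomal type counted in the cytosolic list, had 8198, 9014 and 8274 in local leaves, against 36.9, 43.0 and 57.8 in systemic leaves (7.52 ± 0.19). AT2G29500 (7.23 ± 0.31), AT5G51440 (6.43 ± 0.25) and AT1G52560 (7.53 ± 0.44), annotated as HSP20-like chaperones, lay in the same range. Of the wider set of 26 tested genes that RefSeq describes as HSP20-like, counted after the values were seen, 14 were higher, 2 lower and 10 not called (median 0.43). The summed counts of the cytosolic list were 153196 to 174729.6 in local and 489 to 905 in systemic libraries.

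Of 17 HSP70, HSP90 and HSP100 genes, 16 were higher in local leaves and 0 lower (median 1.87). HSP101 (AT1G74310), the cytosolic disaggregase that pulls proteins out of aggregates, had 100356, 108485 and 115245 in local leaves, against 1247, 1462 and 800.4 in systemic leaves (6.57 ± 0.23, adjusted p = 2.93e-15). The heat-inducible HSP90.1 (AT5G52640) differed by 6.34 ± 0.29 and Hsp70b (AT1G16030) by 5.07 ± 0.14. Constitutive members differed less: HSC70-1 by 0.77 ± 0.08, Hsp81.4 by 0.83 ± 0.09 and the plastid HSP90 gene CR88 by 0.48 ± 0.09. The disaggregases of mitochondria and plastids, CLPB4 (AT2G25140) and CLPB3, differed by 2.92 ± 0.14 and 1.52 ± 0.11. Only mtHsc70-1, a mitochondrial HSP70, did not pass (-0.07 ± 0.09, adjusted p = 0.601). Without the pairs 13 of the 17 passed.

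The 11 co-chaperones tested were all higher (median 3.53). BAG6 (AT2G46240), a calmodulin-binding BAG-domain regulator of HSP70, stood at 56337, 60544 and 79529.9 in local leaves, against 309, 268 and 412 in systemic leaves (7.64 ± 0.17, adjusted p = 2.14e-18). Hop3 (AT4G12400), which bridges HSP70 and HSP90, differed by 6.34 ± 0.20, the FKBP-type isomerase AT5G48570 by 5.32 ± 0.20 and the nucleotide exchange factor Fes1A (AT3G09350) by 4.33 ± 0.17. HSA32 (3.53 ± 0.14), ROF1 (2.21 ± 0.09) and the DNAJ proteins J2 (1.55 ± 0.11) and J3 (1.45 ± 0.08) followed.

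Among 17 heat shock factor genes, 7 were higher, 2 lower and 8 did not pass. HSFA2 (AT2G26150), the inducible activator that keeps the heat response going, had 70549, 76416 and 81999 in local leaves, against 295, 551 and 194 in systemic leaves (7.91 ± 0.36, adjusted p = 1.71e-13). HSFA7A (AT3G51910) differed by 7.61 ± 0.29, and the class B genes, whose products lack the activator domain, by 3.54 ± 0.13 for AT-HSFB2B (AT4G11660), 3.63 ± 0.17 for HSF4 (AT4G36990) and 2.08 ± 0.12 for HSFB2A. HSFA8 was also higher (1.13 ± 0.20). Genes of the A1 class, the factors present before stress, stayed near 0: HSF1 was lower (-0.33 ± 0.08, adjusted p = 0.00988), and HSF3 (-0.05 ± 0.08), HSFA1D (-0.01 ± 0.08) and HSFA1E (0.24 ± 0.13) did not pass. HSFA6A was the other lower gene (-1.39 ± 0.33), at a mean of 9.92 ± 5.23 in local and 25.1 ± 2.49 in systemic leaves, and leaving out any of the 3 pairs left 7 higher and 1 lower factor.

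DREB2A, MBF1C and the galactinol synthases act beside the heat shock factors, the first 2 as transcription regulators and the enzymes in making raffinose-type sugars. Of 6 genes, 5 were higher and 0 lower. DREB2A (AT5G05410) had 5576, 6148 and 9322 in local leaves, against 104, 69.4 and 109 in systemic leaves (6.20 ± 0.21), with replicate 3 highest in both leaves. MBF1C (AT3G24500) stood at 27730.1, 31562 and 28472 in local leaves, against 607, 661 and 579.7 in systemic leaves (5.57 ± 0.13, adjusted p = 3.09e-18). DREB2B (3.17 ± 0.64) was higher too. GolS1 (AT2G47180) differed by 2.16 ± 0.24 and GolS2 (AT1G56600) by 1.42 ± 0.22. Of 12 endoplasmic reticulum stress genes only 3 passed, all higher: the membrane-bound factor gene BZIP28 (AT3G10800; 1.05 ± 0.09), the lumenal HSP70 gene BIP1 (AT5G28540; 0.46 ± 0.13) and BZIP60 (AT1G42990; 0.32 ± 0.10, groups overlapping). Leaving out pair 1, 2 or 3 left 1, 1 and 2 of these calls.

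**Figure D3:**
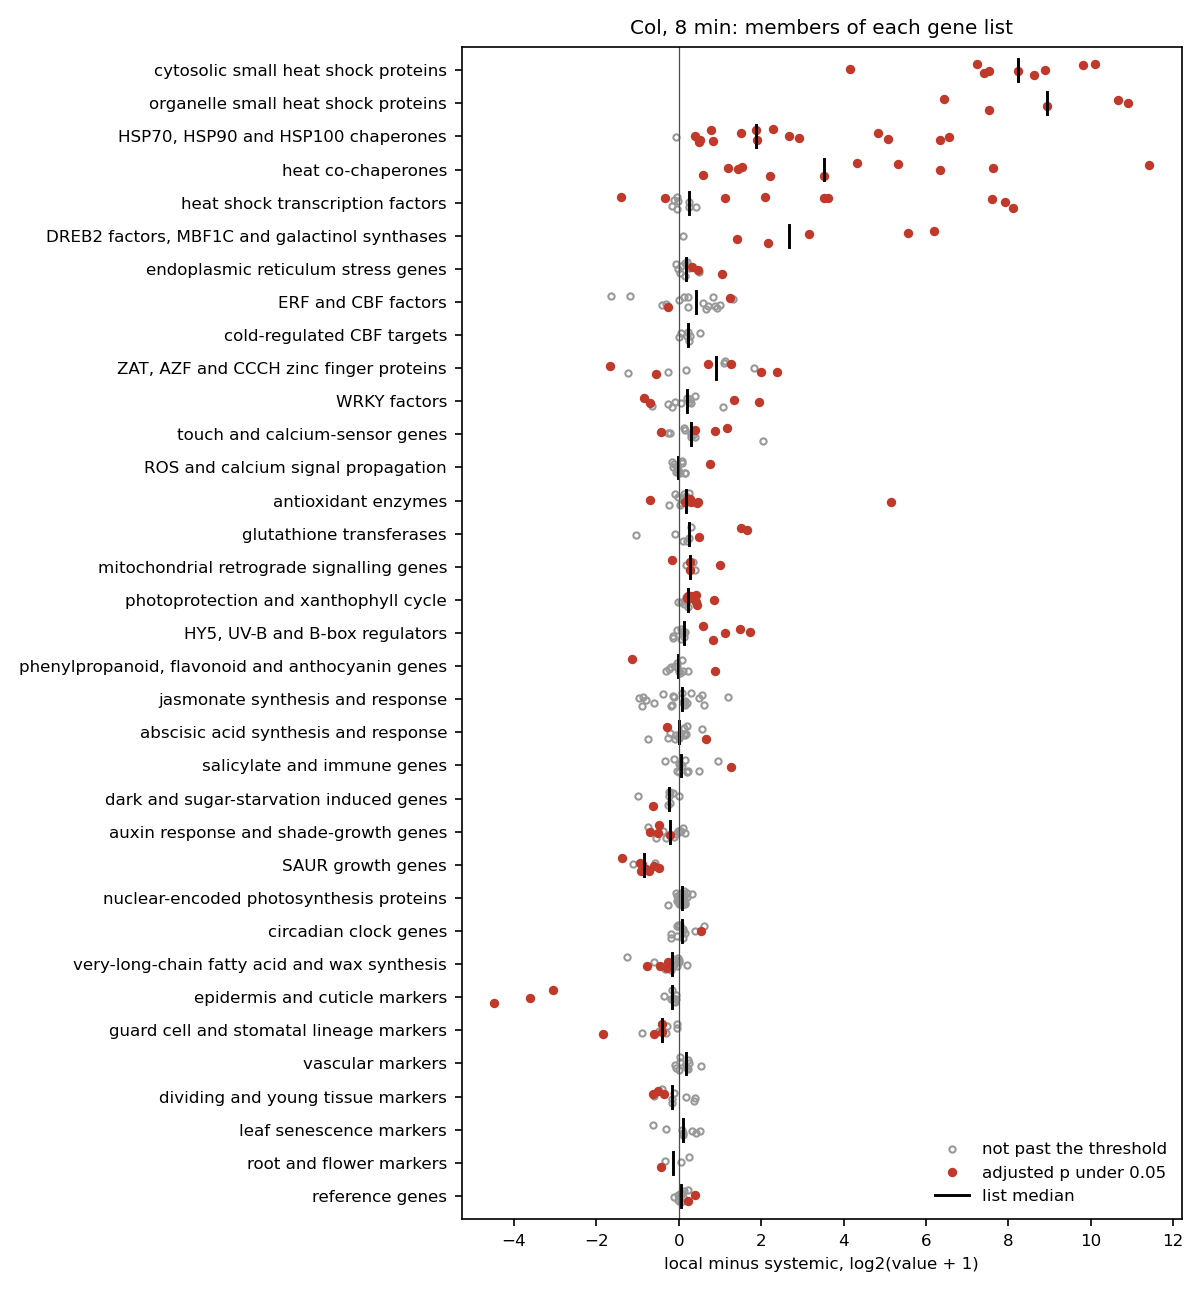
Difference between local and systemic leaves of Col at 8 min (x axis, log2 of value plus 1) for the tested members of each of 35 gene lists, 1 point per gene, filled where the adjusted p is under 0.05, with a bar at the list median. Heat lists spread from near 0 to beyond 8 on the right, and the furthest points on the left are 3 epidermis and cuticle markers between -4.48 and -3.05.

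Enzymes that remove reactive oxygen differed by less, apart from a single gene. APX2 (AT3G09640), the cytosolic ascorbate peroxidase known as a high-light marker of Arabidopsis, had 159, 122 and 168 in local leaves, against 2.70, 1.96 and 5.68 in systemic leaves (5.16 ± 0.40, adjusted p = 3.18e-09). Of 19 antioxidant enzymes, 8 were higher and 1 lower: GPX6 (AT4G11600; 0.43 ± 0.08) and APX1 (AT1G07890; 0.46 ± 0.11) were higher, and CSD2 (AT2G28190), the plastid copper/zinc superoxide dismutase, was lower (-0.70 ± 0.15). This split moved with scaling and pairs: it was 4 higher and 3 lower with quantile normalization, 5 and 2 with scaling to the same total, and 3, 4 and 3 higher with 1 lower when pair 1, 2 or 3 was left out. Of 9 glutathione transferases, which attach glutathione to reactive compounds, 3 were higher. GSTU5 (AT2G29450) had 51016, 55268 and 71180.4 in local leaves, against 16110.1, 19071 and 20966 in systemic leaves (1.65 ± 0.10), and GSTF8 (AT2G47730) and GSTU19 (AT1G78380) differed by 1.51 ± 0.13 and 0.48 ± 0.06. Of 7 genes of mitochondrial retrograde signalling, 3 were higher and 1 lower: BCS1 (AT3G50930; 0.99 ± 0.31), the alternative oxidase AOX1A (AT3G22370; 0.28 ± 0.09) and NAC13 (AT1G32870; 0.27 ± 0.09) were higher and NAC017 (AT1G34190; -0.17 ± 0.04) lower. Leaving out pair 1, 2 or 3 left 0 higher and 1, 0 and 0 lower calls in that list. Among all tested genes 9.51% were higher and 8.26% lower.

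Part of the genes of light protection and light signalling were modestly higher in local than in systemic leaves. Of 14 photoprotection genes, 8 were higher and 0 lower (median 0.22), among them the carotene hydroxylase gene BETA-OHASE 2 (AT5G52570; 0.42 ± 0.07), the stress-enhanced light-harvesting relative SEP2 (AT2G21970; 0.43 ± 0.08) and OHP2 (AT1G34000; 0.30 ± 0.06). PGR5-LIKE A (AT4G22890), of cyclic electron flow, was higher (0.22 ± 0.04) but lay at -0.03 with quantile normalization. That scaling left 5 of the 8 calls, and leaving out pair 2 left 5. Of 14 genes of the HY5, UV-B and B-box list, 5 were higher and 0 lower. BBX32 (AT3G21150) had 5881, 5034 and 3565 in local leaves, against 2248, 1247 and 1053 in systemic leaves (1.72 ± 0.15). BBX31 (AT3G21890; 1.49 ± 0.16), BBX30 (AT4G15248; 1.12 ± 0.13), HY5 (AT5G11260; 0.84 ± 0.11), the bZIP factor that promotes light responses, and HYH (0.59 ± 0.11) were the others. HY5 averaged 1793 ± 145 in local leaves at 8 min, beside 2429 ± 573 at 0 min, and 1004 ± 97.0 in systemic leaves at 8 min, beside 2122 ± 332 at 0 min (local 2251 and systemic 1975 at 0 min without replicate 3). In 30 nuclear photosynthesis genes limma made 0 calls, with 5 at an unadjusted p under 0.05, edgeR made 0 and DESeq2 2. CAB1 (AT1G29930) differed by -0.06 ± 0.08 and RCA (AT2G39730), the Rubisco activase gene, by 0.21 ± 0.09. With quantile normalization and with scaling to the same total 3 of the 30 were lower, with the 0 min pairs left out of the fit 1 was higher, and with the 6 libraries alone 5 were higher and 1 lower. In 7 cold-regulated CBF targets limma, edgeR and DESeq2 each made 0 calls on the 48 libraries, with 3 at an unadjusted p under 0.05, and limma called 3 of the 7 higher both with the 0 min pairs left out of the fit and with the 6 libraries alone; COR15A (AT2G42540) differed by 0.22 ± 0.09 and ERD10 (AT1G20450) by 0.24 ± 0.15.

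Among early stress regulators calls went in both directions, beside 9.51% of all tested genes higher and 8.26% lower. Of 18 ERF and CBF genes 1 was higher, RAP2.4 (AT1G78080), an ERF factor gene of light and drought responses: it had 28892, 28502 and 29078 in local leaves, against 12912, 12167 and 11270.5 in systemic leaves (1.25 ± 0.07, adjusted p = 1.54e-11). TINY2 (AT5G11590) was lower (-0.25 ± 0.08), a call lost without pair 2 or 3. The count for this list depended on the libraries in the fit: 6 were higher and 1 lower with the 0 min pairs left out, and 10 and 3 with the 6 libraries alone. Its median was 0.36 at 0 min (replicate 3 kept, 0 calls), -0.05 at 2 min and 0.41 at 8 min. The 8 min leaf difference minus that at 0 min had a list median of -0.07, with 1 gene higher and 0 lower. The wound and ROS factors ERF6 (1057 ± 231 in local and 567 ± 179 in systemic leaves; 0.93 ± 0.81), ERF104 (1.00 ± 0.81) and CBF2 (0.22 ± 0.58) did not pass, with adjusted p of 0.47, 0.43 and 0.841. Of 12 ZAT, AZF and CCCH zinc finger genes, 4 were higher and 2 lower. ZAT6 (AT5G04340) had 3816, 3300.2 and 3830.0 in local leaves, against 933, 531 and 689.5 in systemic leaves (2.38 ± 0.43), and RHL41 (AT5G59820), also known as ZAT12, had 1152, 903 and 1588 and 451, 216 and 268 in the same order (1.99 ± 0.41). CZF1 (AT2G40140; 1.27 ± 0.38) was higher, and ATCTH (AT2G25900) was lower, at 2263, 2058 and 2402 in local leaves and 6689, 7368 and 7432 in systemic leaves (-1.68 ± 0.10, adjusted p = 2.09e-11). Leaving out pair 1, 2 or 3 left 3, 2 and 2 higher and 1 lower zinc finger gene.

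Of 15 WRKY genes, 2 were higher and 2 lower, where 9.51% of all tested genes were higher and 8.26% lower. WRKY33 (AT2G38470), a factor of defence and stress, had 17315, 12251 and 12597 in local leaves, against 4919.5, 2853 and 3321 in systemic leaves (1.95 ± 0.42), and WRKY46 (AT2G46400) differed by 1.35 ± 0.38. WRKY6 (AT1G62300; -0.85 ± 0.14) and WRKY28 (AT4G18170; -0.70 ± 0.23) were lower. Without pair 1, 2 or 3, 1 higher and 1 lower call were left. Of 13 touch and calcium-sensor genes, 3 were higher, CPK32 (AT3G57530; 0.87 ± 0.15), CAM9 (AT3G51920; 0.38 ± 0.08) and TCH3 (AT2G41100; 1.16 ± 0.26), and CML42 (AT4G20780) was lower (-0.43 ± 0.14), a call that no fit with a pair left out kept. Of 15 genes of ROS and calcium signal propagation 1 passed, and both other scalings added 2 lower ones: RBOHD (AT5G47910), the NADPH oxidase that makes superoxide outside the cell, had 7024, 5050.3 and 5786 in local leaves, against 3589, 3086 and 3793 in systemic leaves (0.76 ± 0.16, adjusted p = 0.00199). The glutamate receptor channel genes GLR3.3 (-0.02 ± 0.07) and GLR3.6 (-0.15 ± 0.07) did not pass. ZAT6 averaged 3649 ± 302 in local and 718 ± 202 in systemic leaves at 8 min, beside 221 ± 156 and 155 ± 46.5 in the same order at 0 min (131 and 163 without replicate 3 at 0 min).

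Hormone lists held few calls, beside 9.51% higher and 8.26% lower among all tested genes. In 21 jasmonate genes limma made 0 calls, with 1 at an unadjusted p under 0.05, edgeR made 1 and DESeq2 0: LOX2 (AT3G45140), the plastid lipoxygenase of jasmonate synthesis, had 26433, 30409 and 169484 in local leaves and 34962, 41772 and 121520.2 in systemic leaves (-0.13 ± 0.21, adjusted p = 0.74), and AOS (AT5G42650) had 20117, 21654 and 63112 and 21404, 22486 and 43377 in the same order (0.13 ± 0.16). Replicate 3 was by far the highest in both leaves for both genes. Of 18 abscisic acid genes, the phosphatase co-receptor ABI1 (AT4G26080) was higher (0.67 ± 0.05, adjusted p = 1.37e-09) and PP2CA (AT3G11410) lower (-0.30 ± 0.09), the second lost without pair 1 or 2. Of 14 salicylate and immune genes 1 was higher, SARD1 (AT1G73805), a calmodulin-binding-type factor gene of salicylate synthesis, at 2103, 651 and 1459 in local leaves and 839, 259 and 666 in systemic leaves (1.26 ± 0.30), where each pair had the local library higher though the groups overlap. Of 14 phenylpropanoid genes, LDOX was higher (0.87 ± 0.25) and MYB111, a flavonol factor gene, lower (-1.14 ± 0.26), while PAL2 (AT3G53260) and 4CL1 (AT1G51680) differed by 0.00 ± 0.08 and 0.09 ± 0.06. Without pair 1, 2 or 3 there were 0 higher and 1, 0 and 1 lower calls left in this list, and without the pairs 0 and 0. PRR9 (AT2G46790) was the only higher gene of 14 clock genes (0.53 ± 0.06). With the 0 min pairs left out of the fit, 1 jasmonate, 1 senescence, 2 abscisic acid, 2 salicylate and 3 clock genes were higher. With the 6 libraries alone these counts were 3, 1, 3, 4 and 2, and 2 vascular, 6 WRKY and 7 zinc finger genes were higher, while 7 guard cell, 6 fatty acid and wax, 4 dark and sugar-starvation and 3 phenylpropanoid genes were lower.

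The 10 lowest genes without overlap between the leaves included products of the outer cell layer and of lipid metabolism. PDF1 (AT2G42840), protodermal factor 1, a cell wall protein gene of the outer cell layer, had 17.5, 13.6 and 7.80 in local leaves, against 249, 309.9 and 338 in systemic leaves (-4.48 ± 0.72, adjusted p = 1.46e-04). LTL1 (AT3G04290), a GDSL-type lipase gene, had 41.2, 55.5 and 31.2 in local leaves, against 548, 409 and 631 in systemic leaves (-3.62 ± 0.53), and the fatty acid desaturase gene ADS1 (AT1G06080) had 19.6, 25.1 and 20.0 and 192, 163 and 203 in the same order (-3.05 ± 0.63). The glycine-rich protein gene AT4G29020 (-3.51 ± 0.41) and the desaturase-family gene AT1G06360 (-2.94 ± 0.38) were lower as well. So were the GDSL lipase genes AT5G45670 (-2.76 ± 0.48) and AT5G18430 (-1.96 ± 0.39) and the lipid transfer protein gene LTP6 (AT3G08770; -2.03 ± 0.33). The remaining 2 of the 10 lowest, AT5G21940 (-2.10 ± 0.15) and the ovate-family gene OFP16 (AT2G32100; -2.07 ± 0.13), stood at 612 ± 13.8 and 455 ± 57.2 in local leaves and 2649 ± 454 and 1914 ± 221 in systemic leaves.

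Of 11 epidermis and cuticle markers only PDF1, LTL1 and ADS1 were lower and 0 higher (8.26% of all tested genes were lower). The layer-identity genes ATML1 (8249 ± 494 in local and 8610.4 ± 477 in systemic leaves; -0.06 ± 0.06) and PDF2 (-0.06 ± 0.07) and the wax gene KCS10 (-0.13 ± 0.08) did not pass. Quantile normalization gave 5 lower markers and scaling to the same total 6. Of 18 genes that make very-long-chain fatty acids and wax, 4 were lower and 0 higher: KCS20 (AT5G43760; -0.45 ± 0.09), KCS9 (AT2G16280; -0.29 ± 0.08) and KCS1 (AT1G01120; -0.26 ± 0.09), which elongate fatty acids, and MYB30 (AT3G28910). Without pair 1, 2 or 3, 2, 4 and 1 of these calls were left, and scaling to the same total gave 10. MYB30 transcripts stood at 621, 559 and 511 in local leaves, against 1039, 848 and 981 in systemic leaves (-0.76 ± 0.17, adjusted p = 0.00423), and the call was lost without pair 3 (adjusted p = 0.0563).

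Promoters of 3 of the 10 lowest genes, those of PDF1 and AT1G06360 among them, hold the letters TAAATGCA, the L1 box of genes active in the outer cell layer, which were searched after the data were seen. The 250 bases before the start of AT1G06360 (chr1:1940497-1940746, minus strand; match 50 bases before the start) are shown with the box, read on the other strand, in capitals; in PDF1 the match lies after the start.
AT1G06360: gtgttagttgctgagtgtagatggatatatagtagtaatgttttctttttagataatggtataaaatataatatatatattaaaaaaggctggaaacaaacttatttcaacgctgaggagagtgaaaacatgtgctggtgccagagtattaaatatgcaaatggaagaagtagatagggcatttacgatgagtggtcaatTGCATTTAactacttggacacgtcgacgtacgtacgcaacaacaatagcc
The box lies in 1.80% of all promoters read, in 2.54% of those lower in local leaves, in 6.57% of those at least 2-fold lower and in 1.77% of those higher.

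Several stomatal markers were lower as well. Of 10 guard cell and stomatal lineage genes, 4 were lower and 0 higher (median -0.41), counts that each fit with a pair left out repeated. The list median was already -0.29 at 0 min (replicate 3 kept, 0 calls) and -0.33 at 2 min (1 lower). The 8 min leaf difference minus that at 0 min had a list median of -0.05, with 3 genes lower and 0 higher. Against 2 min the median was -0.12, with 0 lower and 0 higher. TMM (AT1G80080), the receptor-like protein gene that patterns stomata, had 33, 31.4 and 26.7 in local leaves, against 122, 106 and 107 in systemic leaves (-1.84 ± 0.28, adjusted p = 5.63e-05). The guard cell potassium channel gene KAT1 (AT5G46240) had 2256, 2053 and 1843 in local leaves, against 3325, 2986 and 3048 in systemic leaves (-0.61 ± 0.09), and FMA (AT3G24140; -0.42 ± 0.07) and MYB60 (AT1G08810; -0.40 ± 0.09), factor genes of guard cells, were lower by less. OST1 (-0.05 ± 0.08) and KAT2 (-0.05 ± 0.12) did not pass. The early lineage genes SPCH and MUTE, under the minimum mean, averaged 3.46 and 0.715 in local leaves and 17.5 and 16.6 in systemic leaves. In 11 vascular markers limma, edgeR and DESeq2 each made 0 calls, with 2 at an unadjusted p under 0.05; SUC2 (AT1G22710), the phloem sucrose carrier gene, differed by 0.19 ± 0.10 and SWEET11 (AT3G48740) by 0.55 ± 0.20. In 8 senescence markers limma and edgeR made 0 calls, with 2 at an unadjusted p under 0.05 in limma, and DESeq2 made 1; NYC1 (AT4G13250) differed by 0.10 ± 0.08 and PPH (AT5G13800) by 0.08 ± 0.07.

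Most listed SAUR genes were lower in local leaves. Of 10 SAUR genes, rapidly made auxin-response transcripts of cell expansion, 8 were lower and 0 higher (median -0.84), and 8 were lower in each fit with a pair left out and under both other scalings. SAUR20 (AT5G18020) had 811, 817 and 626 in local leaves, against 1353, 1632 and 1362 in systemic leaves (-0.95 ± 0.10, adjusted p = 4.24e-07). SAUR19 (AT5G18010; -1.38 ± 0.22), SAUR24 (AT5G18080; -0.79 ± 0.10) and AT5G18030 (-0.89 ± 0.12) neighbour it on chromosome 5 and are close copies, so reads may be split between them. Of 15 auxin and shade-growth genes, 4 were lower and 0 higher: the homeobox gene HB-2 (AT4G16780; -0.69 ± 0.12), PRE1 (AT5G39860; -0.51 ± 0.09), the auxin repressor gene IAA1 (AT4G14560; -0.48 ± 0.09) and the efflux carrier gene PIN3 (AT1G70940; -0.21 ± 0.06). Of 11 genes of dividing and young tissue, TCP4 (AT3G15030; -0.63 ± 0.08), GRF1 (AT2G22840; -0.51 ± 0.12) and ANT (AT4G37750; -0.35 ± 0.11) were lower and 0 higher, with 1, 3 and 2 left without pair 1, 2 or 3. At an unadjusted p under 0.05 in limma, 2 of the 11 were higher and 5 lower. Their median was already -0.18 at 0 min (replicate 3 kept, 0 calls), beside -0.17 at 8 min. The 8 min leaf difference minus that at 0 min had a list median of -0.02, with 2 genes lower and 0 higher. Of 9 dark and sugar-starvation genes only TPS11 (AT2G18700; -0.62 ± 0.09) passed, and it was lower. SHR (AT4G37650) was the only call among 4 root and flower markers (-0.44 ± 0.11). Of 12 reference genes, GAPC1 (AT3G04120; 0.40 ± 0.07) and UBQ10 (AT4G05320; 0.23 ± 0.06) were higher and ACT2 (-0.02 ± 0.05) was not; under quantile normalization the list had 1 higher and 3 lower, with UBQ10 not past the threshold.

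The leaf difference was set against the one at other times, which share no library with it. At 0 min 0 genes differed between the leaves in limma and in edgeR, 1727 and 1736 had an unadjusted p under 0.05, and DESeq2 called 16; without replicate 3 limma also called 0, with 1594 at an unadjusted p under 0.05. At 2 min 38 genes were higher in local leaves and 40 lower (0.194% and 0.205%), and at 30 min 5583 and 5619 (28.5% and 28.7%, 57.3% in all). Of the 1859 genes higher at 8 min, 37 were called higher at 2 min (1.99% of the 8 min calls and 97.4% of the 2 min calls) and 1492 at 30 min (80.3% and 26.7%), with 48 called lower there. Of the 1616 lower genes, 34 were called lower at 2 min (2.1% and 85.0%) and 1253 at 30 min (77.5% and 22.3%), with 99 called higher there. Of all genes, 51.3% were above 0 at 2 min and 48.8% at 30 min, against 83.8% and 91.9% of the genes higher at 8 min. Below 0 lay 48.7% and 51.2% of all genes, against 80.3% and 88.9% of the genes lower at 8 min.

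PDF1, LTL1, AT4G29020 and TMM already differed at 2 min. Local means of PDF1 were 327 ± 109, 16.5 ± 4.62, 13.0 ± 4.89 and 11.5 ± 2.97 at 0, 2, 8 and 30 min, and the systemic means were 239 ± 223, 226 ± 67.3, 299 ± 45.7 and 349.8 ± 46.6. Without replicate 3 the 0 min means were 284 in local and 317 in systemic leaves. The 2 min leaf difference was -3.70 ± 0.72 for PDF1 (adjusted p = 0.024), -3.23 ± 0.53 for LTL1, -2.79 ± 0.41 for AT4G29020 and -1.54 ± 0.28 for TMM, all called. At 2 min 2 of 9 genes of the cytosolic and 0 of 5 of the organelle small heat shock list were called, where 0.194% of all genes were higher. Of the 17 HSP70, HSP90 and HSP100 genes and the 11 co-chaperones 0 were called. The genes called were AT1G59860 (3.32 ± 0.28) and AT5G37670 (1.32 ± 0.19), the peroxisomal type in the cytosolic list. Outside these lists HSFA2 (1.63 ± 0.36) and MBF1C (1.37 ± 0.13) were called. HSP101 lay at -0.04 ± 0.23 (adjusted p = 0.965). In systemic leaves HSP101 averaged 3516 ± 1219, 1676 ± 634, 1169.7 ± 337 and 1448 ± 251 at 0, 2, 8 and 30 min, so that its 8 min systemic level lay below that at 0 min (4019.5 without replicate 3 at 0 min). The local means were 3205 ± 1037, 1602 ± 551, 108029 ± 7455 and 587788 ± 63849. HSFA2 averaged 1397 ± 718, 468 ± 206, 347 ± 184 and 998 ± 351 in systemic leaves over the same times (1643 at 0 min without replicate 3).

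**Figure D4:**
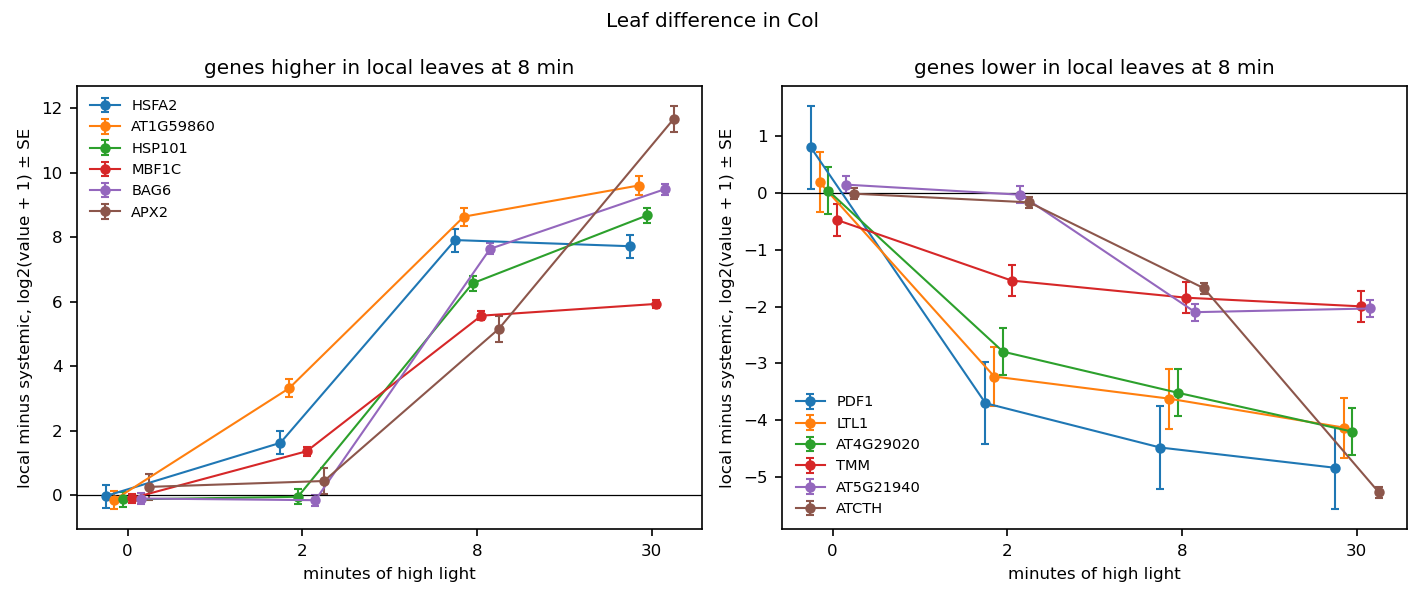
Difference between local and systemic leaves in Col (log2 of value plus 1, bars are SE, 3 pairs per time) after 0, 2, 8 and 30 min of high light for 6 genes higher and 6 genes lower in local leaves at 8 min. PDF1, LTL1, AT4G29020 and TMM are already below 0 at 2 min, while HSP101, BAG6, AT5G21940 and ATCTH move after 2 min.

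Tests of the difference between the leaf differences gave 969 genes with a higher and 686 with a lower value at 8 min than at 0 min (4.96% and 3.51%, 8.46% in all), and 608 and 366 without replicate 3 at 0 min. Without the pairs 811 genes were called in all, and without pair 1, 2 or 3 of 8 min 1096, 1006 and 974. Against 2 min, 407 were higher and 195 lower (2.08% and 0.997%, 3.08% in all; 373 in all without the pairs). Among the genes named by rule, the lowest values against 0 min were those of PDF1 (-5.28 ± 1.02), LTL1 (-3.80 ± 0.75), ADS1 (-3.58 ± 0.89) and AT4G29020 (-3.55 ± 0.59), and those against 2 min belonged to AT5G21940 (-2.07 ± 0.21), OFP16 (-1.77 ± 0.19), the ERF-family gene AT5G61590 (-1.73 ± 0.17) and AT2G20670 (-1.63 ± 0.21). Without replicate 3 at 0 min the values against 0 min were -4.53 ± 1.08 for PDF1, -2.94 ± 0.73 for LTL1, -2.91 ± 0.98 for ADS1 (adjusted p = 0.102, no longer called) and -2.97 ± 0.60 for AT4G29020. OFP16 had local means of 1124 ± 72.8, 1374 ± 89.6, 455 ± 57.2 and 85.5 ± 27.9 at 0, 2, 8 and 30 min, and systemic means of 1116 ± 99.8, 1695 ± 54.0, 1914 ± 221 and 1788 ± 199, so that at 8 min the local level lay below and the systemic level above their 0 min levels (1131 local and 1066 systemic without replicate 3 at 0 min). Scaling moved the split against 0 min: 823 higher and 1134 lower with quantile normalization (42.1% higher, against 58.6%) and 653 and 2209 with scaling to the same total (22.8%).

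Against 30 min, 3056 genes had a higher and 3301 a lower leaf difference at 8 min (15.6% and 16.9%), and scaling to the same total gave 6177 and 1927. APX2 had the lowest value (-6.49 ± 0.57) among the genes named by rule, with local means of 149.8 ± 24.1 at 8 min and 14227 ± 606 at 30 min. GPT2 (AT1G61800), a plastid glucose-phosphate carrier gene, differed by -0.99 ± 0.44 at 8 min (adjusted p = 0.129) and by 4.96 ± 0.44 at 30 min. The SAUR-like gene AT1G75580 (-5.81 ± 0.33) and the plastid protease gene FTSH6 (AT5G15250; -5.41 ± 0.85) also had leaf differences far higher at 30 min. Positive values belonged to genes far lower in local leaves at 30 min, TPS11 (3.76 ± 0.12), AT3G15450 (4.12 ± 0.19), AT3G62950 (4.06 ± 0.23) and BBX17 (AT1G49130; 3.87 ± 0.31). BBX17 averaged 278 ± 30.9 in local and 306 ± 33.6 in systemic leaves at 8 min, against 39.0 ± 7.73 and 635 ± 74.5 in the same order at 30 min. In the cytosolic small heat shock list the leaf difference at 8 min was below that at 30 min in 8 of 9 genes that passed (median -2.77), where 16.9% of all genes passed in that direction.

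In myb30 at 8 min, 747 genes were higher in local leaves and 651 lower (3.82% and 3.33%, 7.15% in all). Of the genes higher in Col, 1776 of 1859 lay above 0 in myb30 and 653 were called there, which is 35.1% of the Col calls and 87.4% of the myb30 calls. Of the lower genes 1546 of 1616 lay below 0 and 504 were called (31.2% and 77.4%). Among all tested genes 52.0% lay above 0 and 48.0% below in myb30. In no gene did the leaf difference in Col differ from that in myb30 by limma or edgeR (1140 and 1165 genes at an unadjusted p under 0.05), and DESeq2, which gave no adjusted p for 17440 genes, called 16, all larger in Col.

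Most heat genes had larger point estimates in Col than in myb30. All 9 genes of the cytosolic and all 5 of the organelle small heat shock list lay higher in Col (medians of the difference 1.32 and 1.60). The same held for 16 of 17 HSP70, HSP90 and HSP100 genes, all 11 co-chaperones and all 6 genes of the DREB2 list. Among heat shock factor genes it held for 13 of 17 (median 0.13). Of all tested genes, 9746 of 19556 lay higher in Col, with a median difference of -0.00061. Larger differences from 0 in Col were not particular to heat genes. Genes called higher in Col had a median leaf difference of 0.37 in Col and 0.21 in myb30. For genes called lower the medians were -0.38 and -0.23. These genes were picked by their values in Col, which favours larger values there. ATHSP22.0 and HSP21 of the organelle list had 0 and 1 reads in all in systemic leaves of Col, so the 1.60 may depend on the pseudocount. The genes of these lists share the same 3 pairs per genotype and are not independent. No single gene passed in limma. MBF1C had the smallest p (1.07 ± 0.19, adjusted p = 0.115; by DESeq2 1.08, adjusted p = 9.2e-06), with leaf differences of 5.57 ± 0.13 in Col and 4.49 ± 0.13 in myb30. AT5G03990, an FK506-binding-like protein gene, followed (0.73 ± 0.12, adjusted p = 0.115), as did AT1G66080, a hikeshi-like protein gene (0.77 ± 0.14, adjusted p = 0.119). In HSP101 the local mean was 108029 ± 7455 in Col and 85039.9 ± 22988 in myb30, and the systemic mean 1169.7 ± 337 in Col and 1959 ± 1349 in myb30. Of the other lists, 2 of 21 jasmonate genes and 27 of 30 photosynthesis genes had the larger leaf difference in Col, with medians of the difference of -0.42 and 0.08.

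**Figure D5:**
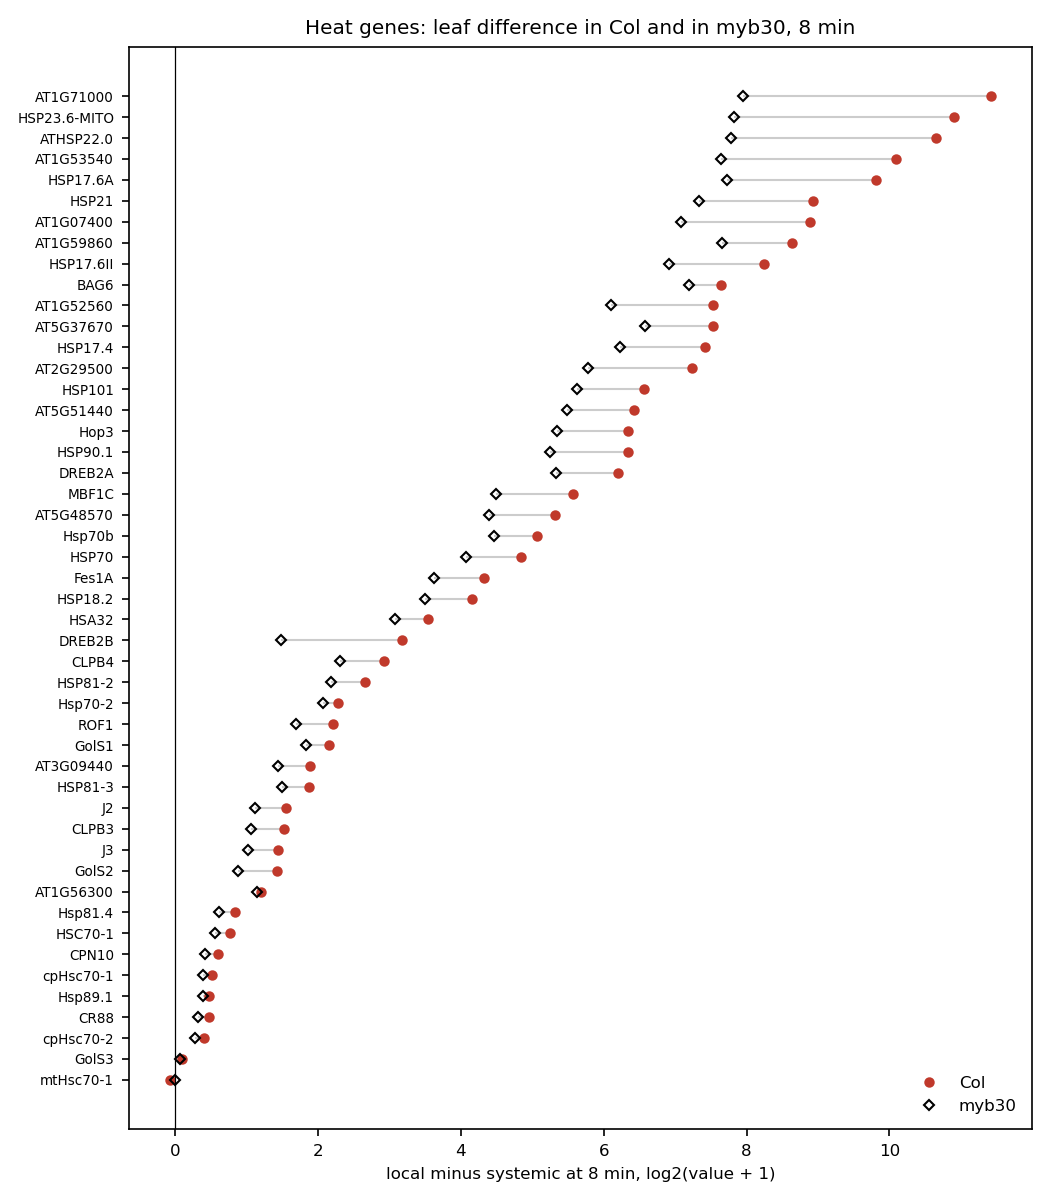
Difference between local and systemic leaves at 8 min (x axis, log2 of value plus 1) in Col (filled circles) and in myb30 (open diamonds) for 48 genes of the heat shock protein, co-chaperone and DREB2 lists, 1 gene per row. In 47 of 48 genes the Col value lies to the right of the myb30 value, and no single difference passed the test in limma.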

How the data were processed

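RNA-seq of leaves gave 1 table of 48 libraries. Per the submitters' processing notes the tools were cutadapt 1.18, FastQC 0.11.7, STAR 2.4.0.1 and DESeq2 1.20.0 with TAIR10. The deposited values are a signal, gene read counts divided by 1 size factor per library (0.776 to 1.17): all of the 1084756 values above 0 (100%) were whole multiples of a library's step within 1e-06, so reads were recovered. Depth was 70514715 to 89402096 reads per library. Of 32833 identifiers 32548 matched the RefSeq annotation (TAIR10.1), and replicates differed beyond counting noise in 48 of 48 pairs (chi-square per gene 15.9 to 71.3).

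The test was limma 3.58.1 in R 4.3.3 on log2(value + 1) over all 48 libraries, with a block for each of 24 local and systemic pairs and 16 residual degrees of freedom, Benjamini-Hochberg adjusted over 19556 genes with a mean of at least 10. The pairs of Col at 8 min were taken as paired because their deviations correlated (0.526, 0.315 and 0.587), since no label gives the meaning of a replicate number. The fit blocks all 24 pairs, of which 21 had a correlation over 0.1; pair 1 of Col at 0 min (0.0849), pair 2 of Col at 30 min (0.0596) and pair 2 of myb30 at 30 min (-0.136) did not, so the block is less well founded for 0 and 30 min. edgeR 4.0.16 and DESeq2 1.42.0 on the recovered reads, other pseudocounts, filters, scalings, sets of libraries, no block and each replicate left out were the alternatives. The fit was also run on simulated data with the same spread in every group, which does not cover groups that differ in spread. Contrasts share the estimate of spread.

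Named genes are, for the leaf comparison, the 10 highest and 10 lowest called genes with a group mean of at least 50, no overlap and 1 direction in all 3 pairs; for each list up to 4 called members with the smallest p, or the 2 with the highest mean where none was called; for each contrast of leaf differences the 4 highest and 4 lowest called, or the 3 with the smallest p; and MYB30. Other list members were named after their values were seen. The members and lists were chosen with earlier results of these data known. 1 promoter sequence is not reported here.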

Additional observations from a re-analysis of the deposited data

Results flagged for a closer look

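The leaf difference in Col at 8 min differed from that at other times by a test of the difference itself in 1655 genes against 0 min, 602 against 2 min and 6357 against 30 min. All values here are the 8 min leaf difference minus that of the other time on the log2(value + 1) scale. Against 0 min they were 11.97 for AT1G71000, 11.17 for HSP23.6-MITO, 10.98 for ATHSP22.0 and 11.57 for HSP17.6A, and -5.28 for PDF1, -3.80 for LTL1, -3.55 for AT4G29020 and -3.58 for ADS1. Without the replicate 3 pairs at 0 min they were 10.74, 10.34, 10.42 and 11.36, and -4.53, -2.94, -2.97 and -2.91, in the same order of genes, and ADS1 was no longer called (limma adjusted p = 0.102). Against 2 min they were 10.66 for AT1G71000, 10.45 for HSP23.6-MITO, 10.63 for ATHSP22.0 and 10.25 for HSP21, and -2.07 for AT5G21940, -1.77 for OFP16, -1.73 for AT5G61590 and -1.63 for AT2G20670. For AT1G71000, ATHSP22.0 and HSP21, with at most 2 reads in all in the systemic leaves at 8 min, these values depend on the pseudocount and give no size. Against 30 min they were -6.49 for APX2, -5.95 for GPT2, -5.81 for AT1G75580 and -5.41 for FTSH6, and 3.76 for TPS11, 4.12 for AT3G15450, 4.06 for AT3G62950 and 3.87 for BBX17.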

How the results depend on the processing

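Of 111 named genes called at 8 min, 71 kept their direction and call under every alternative setting fitted for that comparison. Calls were lost by 21 without the block and by 17, 14 and 17 without replicate 1, 2 or 3, and PGR5-LIKE A changed sign with quantile normalization (-0.029). The paired analysis mattered: without the replicate block 2030 genes differed at 8 min, 811 against 0 min, 373 against 2 min and 4880 against 30 min. A threshold of 0.01 left 1803 genes at 8 min. Against 0 min, scaling to the same total gave 2862 genes and leaving out the replicate 3 pairs at 0 min 974; against 2 min, the compared groups alone gave 911. Against myb30 the compared groups alone gave 2 genes and DESeq2 16. Leaving out a pair gave 1817 to 2041 genes at 8 min and 974 to 1096 against 0 min. Leaving out 1 library without the block (local replicates 1, 2 and 3, then systemic ones) gave 1435, 1642, 1436, 1455, 1383 and 1602 genes at 8 min, 623, 639, 664, 691, 621 and 612 against 0 min and 329, 348, 335, 367, 326 and 350 against 2 min. The causes of these changes were not tested. Depth limits genes at a few reads, whose fitted log2 values depend on the pseudocount and whose folds, where given, are bounds against a floor of 3 reads.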

Other observations

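Several gene families, chosen after their values were seen and counted by the words of their RefSeq descriptions, differed between local and systemic leaves of Col at 8 min, where 9.51% of all tested genes were higher and 8.26% lower. Of 53 genes annotated as SAUR-like, 2 were higher and 24 lower. Of 14 two-component response regulators, which act in cytokinin signalling among other roles, 0 were higher and 8 lower, and of 41 pectin lyase-like genes, whose family acts on cell wall pectin, 0 and 12. Glutaredoxins, small thiol reductases, had 7 higher and 0 lower of 19, peroxins 6 and 0 of 18 and FTSH proteases, which clear damaged membrane proteins, 5 and 0 of 10. Scaling to the same total gave 6 and 2, 3 and 2, and 5 and 2 for these 3 families in that order. Peroxins had 3 higher with quantile normalization, without the block and without replicate 3, FTSH proteases 3 without the block and without replicate 1, 2 or 3, and pectin lyase-like genes 7 lower without the block and 8, 8 and 6 without replicate 1, 2 or 3. The test against the 0 min leaf difference, replicate 3 of 0 min kept, called 4.96% of all tested genes higher and 3.51% lower. It gave 4 higher and 22 lower SAUR-like genes, 0 and 4 response regulators and 0 and 5 pectin lyase-like genes. For glutaredoxins, peroxins and FTSH proteases it gave 6, 1 and 2 higher and 0 lower. Genes chosen in the same way included PDX1.2 (AT3G16050; 6.61 ± 0.22, adjusted p = 1.19e-15 by limma), a non-catalytic partner in vitamin B6 synthesis, ATERDJ3A (AT3G08970; 5.31 ± 0.19), MIR824 (AT4G24415; 3.37 ± 0.25), MIR167d (AT1G31173; -1.53 ± 0.22) and EXPA16 (AT3G55500; -1.59 ± 0.20), an expansin of cell wall loosening.

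Most transcripts of the mitochondrial genome were higher in local leaves. Of 42 mitochondrial genes 32 were higher and 0 lower, with 24, 30 and 17 higher without replicate 1, 2 or 3. They made up 0.0319% to 0.0441% of reads in local libraries and 0.0204% to 0.0241% in systemic libraries. The part of library preparation in this was not tested. Of 86 chloroplast genes 17 were higher and 2 lower, and scaling to the same total gave 3 and 3, no block 8 and 1, and leaving out replicate 1, 2 or 3 gave 2, 6 and 6 higher. Of 309 genes described as ribosomal proteins 5 were higher and 15 lower, and quantile normalization and scaling to the same total gave 104 and 117 lower, no block 4 and each replicate left out 3. Tested against the 0 min leaf difference, replicate 3 of 0 min kept, 14 mitochondrial genes were higher and 0 lower. In the same test 0 chloroplast genes were higher and 1 lower, and 1 ribosomal protein gene was higher and 1 lower.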
